A study of Homo sapiens with 3 samples.

Results

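Among the m6A regions found in nuclear RNA of MDA-MB-231 cells, 7 genes served as a reference for what the list shows where little or no transcript is thought to be made: CDH1, EPCAM, ESR1, GATA3, FOXA1, ERBB3 and CDKN2A. The first 6 are epithelial or luminal genes regarded as silent in this line, and CDKN2A is regarded as deleted in it. Each gene was given a fixed window in hg19, in whole kb, and a region was counted when its midpoint lay in the window on the strand of the gene. The windows follow the positions of the genes, and the genes were chosen with earlier results of these data known. Of the 41836 regions deposited for the series, 0 fell in the 7 windows on the strand of the gene and 0 on the opposite strand. As background, tiles of the same lengths laid over the whole genome held a region on a given strand in 2.84% (the shortest window) to 42.5% (the longest) of cases.

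MDA-MB-231 is an established human breast cancer line of mesenchymal type that lacks the estrogen receptor. The series holds 2 libraries made from nuclear RNA captured with an antibody against N6-methyladenosine (m6A) and 1 library captured with IgG as control. The labels name no treatment or genotype that would set the 3 apart, and do not say whether the 2 m6A libraries came from separate cultures. The data analysed are 1 merged list of regions with no value for any single library, so no count below has a replicate error, the difference from IgG could not be measured, and no test between conditions was made. RNA levels were not analysed here: that the 7 genes are silent or deleted is background on the line.

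N6-methyladenosine is a methyl mark that the METTL3 and METTL14 complex places on adenosine while RNA is being made, mostly at short motifs of which GGACU is the best known. It is found in mRNA near stop codons and in long internal exons, and nuclear RNA can also carry it in introns that have not been removed. A gene with no transcript offers the antibody nothing to bind, so regions in its window would measure how often the list reports signal without RNA. Breast epithelial cells of the luminal kind hold CDH1, EPCAM, ESR1, GATA3, FOXA1 and ERBB3 active, and cells that have moved to a mesenchymal state lose many of them.

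For 6 of the 7 genes the mature mRNA that was searched contains the motif. It was searched as GGACT on the sense strand of 1 coding transcript per gene from GENCODE release 29. For CDKN2A, which is read in more than 1 frame, that transcript has 399 coding nt, and its other transcripts were not searched. CDH1 held 6 copies, EPCAM 2, ESR1 5, GATA3 3, FOXA1 5, ERBB3 7 and CDKN2A 0. Their median was 1.16 copies per kb of mRNA, against 0.935 (quartiles 0.534 and 1.42) over 19455 protein-coding genes, of which 88.2% held at least 1. The stretches below are shown because each holds the copy of the motif in the coding sequence that is nearest the stop codon. Introns, which the windows include, were not searched. Each runs 5′ to 3′ in DNA letters with the motif in capitals, and ESR1 is left out because its 5 copies lie outside the coding sequence.
CDH1: aaagaccaGGACTatgactac
EPCAM: aagtttgcGGACTgcacttca
GATA3: tcactggaGGACTtccccaag
FOXA1: cataagctGGACTtcaaggca
ERBB3: ggctgctgGGACTatgcccag

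In these copies, chosen as nearest the stop codon, the motif ended 71 nt before it in CDH1, 167 nt in FOXA1 and 176 nt in GATA3. Those positions lie within the part of an mRNA where m6A is often found. Their nearness follows in part from the choice, and distances in other genes were not computed. The coding copy nearest the stop codon lay farther away in EPCAM (450 nt) and ERBB3 (1696 nt). Only 1 of the 2 copies in EPCAM and 5 of the 7 in ERBB3 were coding. The distance of copies outside the coding sequence from the stop codon was not measured. A match shows only that these letters are present. The m6A list has no region over any of the 7 genes, so none of these copies was reported as methylated. Regions in introns could not be compared with sequence, because no hg19 genome was used.

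Among the adhesion genes, CDH1 encodes E-cadherin, the calcium-dependent adhesion molecule of epithelial junctions. Its plus-strand window on chromosome 16 (68771001 to 68870000) held 0 regions in 99 kb. The share of all genome tiles of that length that hold a region on a given strand was 17.3%. The nearest region on the strand of CDH1 lay 91.6 kb past the 3′ end of the window, at 68961604 to 68961639, and the nearest one upstream lay 439 kb away. No region of either strand was listed for 630 kb around the gene. CDH3, the P-cadherin gene that precedes CDH1, also held 0 regions in 55 kb, and TANGO6, which follows it, held 1 in 242 kb.

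EPCAM encodes a surface glycoprotein of epithelial cells that is used to capture carcinoma cells. Its plus-strand window on chromosome 2 (47596001 to 47615000) held 0 regions in 19 kb, where 5.72% of tiles of that length hold one. Here the surroundings were not empty. CALM2, a calmodulin gene on the minus strand before EPCAM, held 7 regions in 17 kb. Within 300 kb of the EPCAM window there were 5 regions on its own strand and 9 on the opposite strand.

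Among the luminal transcription factors, ESR1 encodes estrogen receptor alpha and had by far the longest window, 414 kb of the plus strand on chromosome 6 (152011001 to 152425000). It held 0 regions, against 42.5% of tiles of 414 kb with at least 1 on a given strand. On the strand of ESR1, no region was listed for 2.27 Mb. The nearest on that strand lay 277 kb upstream and 1580 kb downstream. SYNE1, a nuclear envelope gene that follows on the minus strand, held 6 regions in 517 kb, the closest of them 52.1 kb past the end of the ESR1 window. CCDC170, on the other side, held 0 in 128 kb.

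GATA3 and FOXA1 encode factors that open and bind enhancers together with the estrogen receptor in luminal cells. GATA3 had a plus-strand window of 22 kb on chromosome 10 (8096001 to 8118000), with 0 regions and a tile share of 6.31%. FOXA1 had the shortest window, 7 kb of the minus strand on chromosome 14 (38058001 to 38065000), with 0 regions and a tile share of 2.84%. Both lay in wide stretches without a region on either strand, of 3.3 Mb for GATA3 and 3.16 Mb for FOXA1. Of the 41568 gaps in the list, 43 were at least as long as the one at GATA3, and 53 as long as that at FOXA1. Such gaps made up 8.28% and 9.36% of the summed gap length. For gaps on the strand of the gene alone, the shares were 19.6% and 20.1%. The genes beside GATA3, TAF3 and CELF2, held 0 regions in 199 kb and 1 in 332 kb. Those beside FOXA1, MIPOL1 and TTC6, held 0 in 354 kb and 0 in 447 kb. In these neighbourhoods the count of 0 in the gene cannot be told apart from a count of 0 in everything around it.

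ERBB3 encodes a receptor of the EGF receptor family with little kinase activity of its own, which signals through its partner ERBB2. Its plus-strand window on chromosome 12 (56473001 to 56498000) held 0 regions in 25 kb, and 6.89% of tiles of that length hold one. It lay in the densest surroundings of the 7. Within 300 kb of the window there were 25 regions on the strand of ERBB3 and 33 on the opposite strand. PA2G4, the growth regulator gene that follows ERBB3 on the same strand, held 3 regions in 10 kb, at 56503659 to 56503698, 56504657 to 56504690 and 56506823 to 56506921. The first began 5.66 kb past the ERBB3 window. RPS26, the ribosomal protein gene before ERBB3, held 0 regions in 4 kb, a length at which a count of 0 allows up to 75 per 100 kb, and its transcript has 0 copies of GGACT.

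CDKN2A encodes the cell cycle inhibitor p16 and, in another reading frame, p14ARF. Its minus-strand window on chromosome 9 (21967001 to 21995000) held 0 regions in 28 kb, with a tile share of 7.44%. As the gene regarded as deleted, it would give no RNA. No region was listed on either strand for 1.92 Mb, from 20831527 to 22747846. That stretch takes in its neighbours MTAP, a methionine salvage gene, with 0 regions in 64 kb, CDKN2B, the p15 gene, with 0 in 8 kb, and DMRTA1 with 0 in 7 kb. The length of a deletion was not measured here, and 206 gaps of the list, this one included, were as long or longer. Among them were those at FOXA1 and GATA3, for which no deletion is stated.

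**Figure D1:**
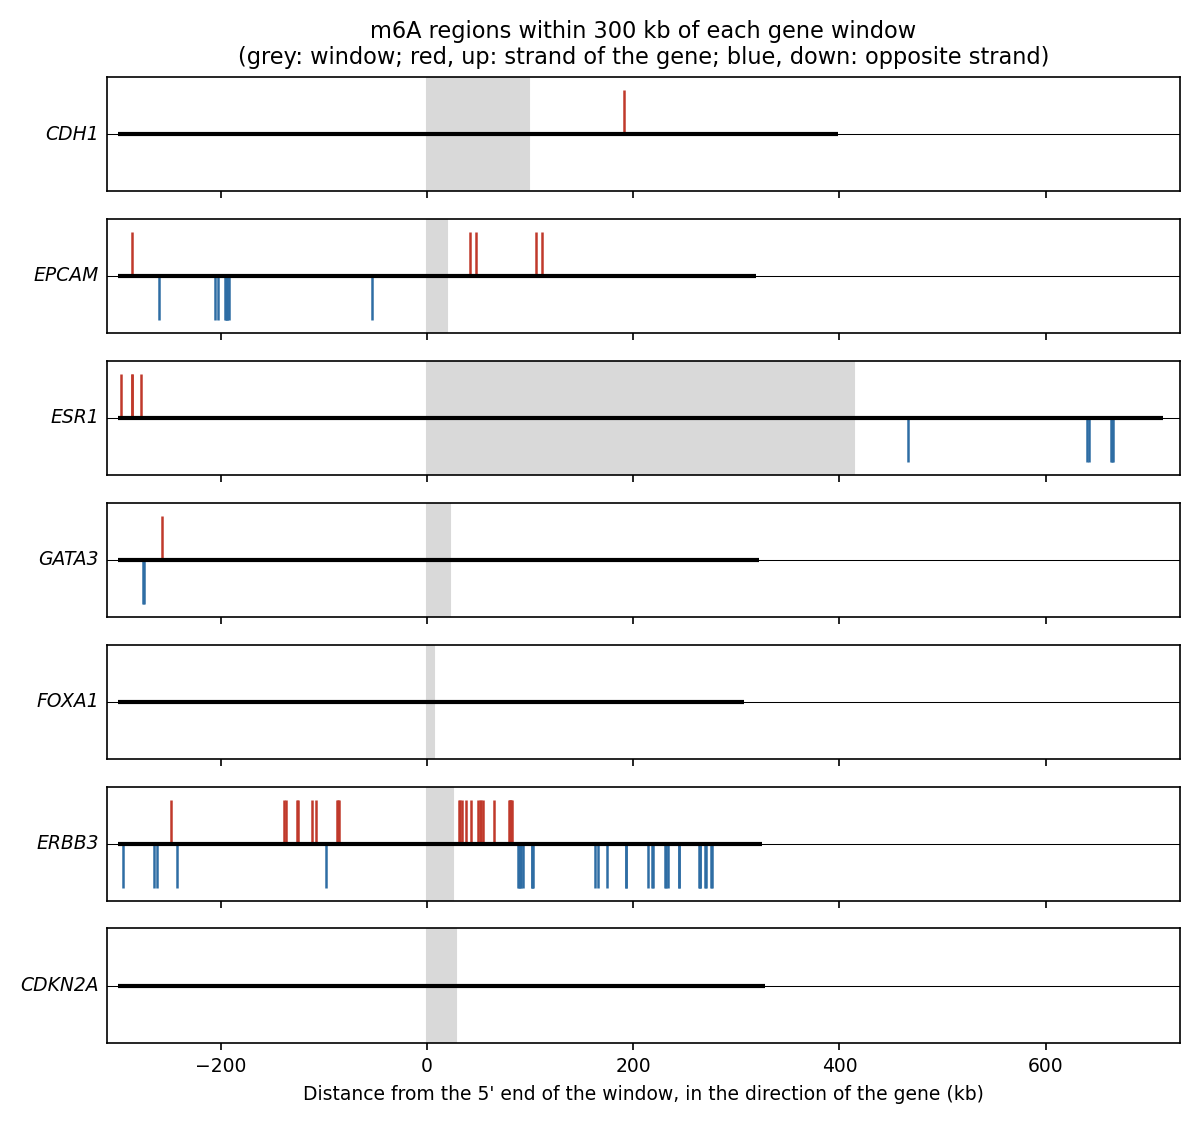
The panels show m6A regions within 300 kb of each of the 7 windows, as distance in kb from the 5′ end of the window in the direction of the gene. Grey marks the window, red bars regions on the strand of the gene and blue bars regions on the opposite strand. All 7 windows are empty. ERBB3 and EPCAM have regions close by, and FOXA1 and CDKN2A have 0 within 300 kb.

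The stretches without a region differed widely in length among the 7 genes. On either strand they measured 94.3 kb at EPCAM, 116 kb at ERBB3, 630 kb at CDH1, 743 kb at ESR1, 1.92 Mb at CDKN2A, 3.16 Mb at FOXA1 and 3.3 Mb at GATA3. The median gap between regions of the whole list was 4.35 kb. Regions lie in clusters, and the long gaps between clusters fill most of the genome. Gaps at least as long as that at EPCAM (5189 of 41568) made up 86.9% of the summed gap length, and those at least as long as that at ERBB3 (4594) 84.8%. Those shares were 53% for CDH1, 48.1% for ESR1, 21.8% for CDKN2A, 9.36% for FOXA1 and 8.28% for GATA3. For gaps on the strand of the gene alone they ran from 19.6% at GATA3 to 93.3% at ERBB3.

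**Figure D2:**
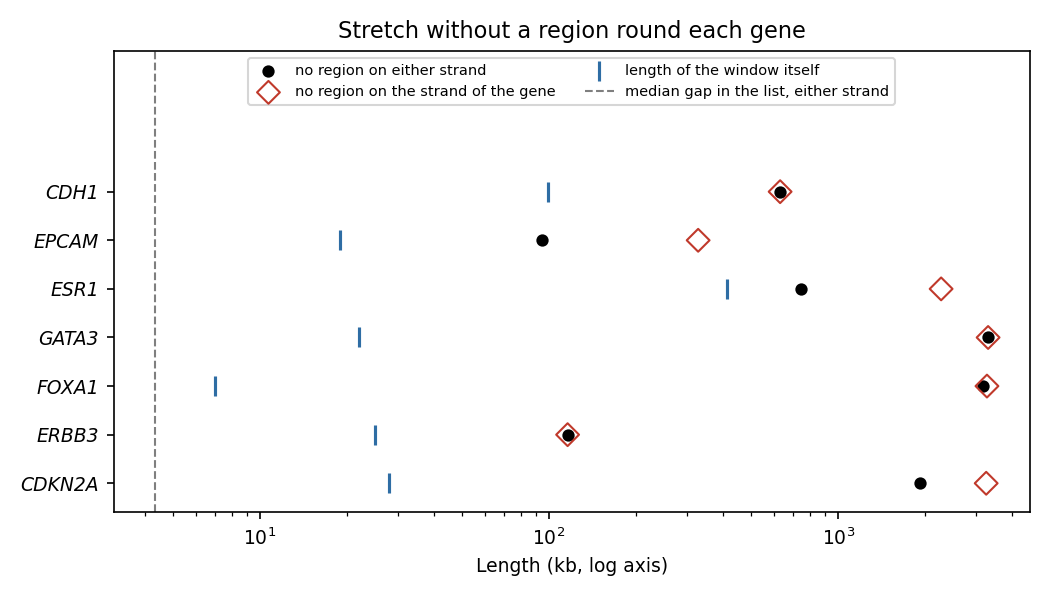
Points give the length in kb, on a log axis, of the stretch around each gene without a region on either strand (black) or on the strand of the gene (red), beside the length of the window (blue). The dashed line is the median gap of the list, 4.35 kb. On either strand, the stretches at GATA3, FOXA1 and CDKN2A exceed 1 Mb and those at EPCAM and ERBB3 are the shortest. On the strand of the gene ESR1 also exceeds 1 Mb, with 2.27 Mb.

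Over the 7 windows together, 0 regions in 614 kb allows a rate of up to 0.489 regions per 100 kb of gene strand, counting error only. This limit is the rate that 3 regions would give. Over the 3090 Mb from the start of each chromosome to its last region the list held 0.677 regions per 100 kb of strand, a rate at which 614 kb would hold 4.16. The limit would lie below the genome mean by a small margin if regions fell independently. They come in clusters, so this does not place the 7 windows below the background of the list. Tiles of each window length mostly held no region on a given strand. The share with a region was 42.5% at the length of ESR1, 17.3% at that of CDH1, and lower at the other lengths. ESR1 supplies most of the length: without it the other 6 windows held 0 in 200 kb, with a limit of 1.5 per 100 kb, above the genome mean. Without CDKN2A the limit was 0.512.

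**Figure D3:**
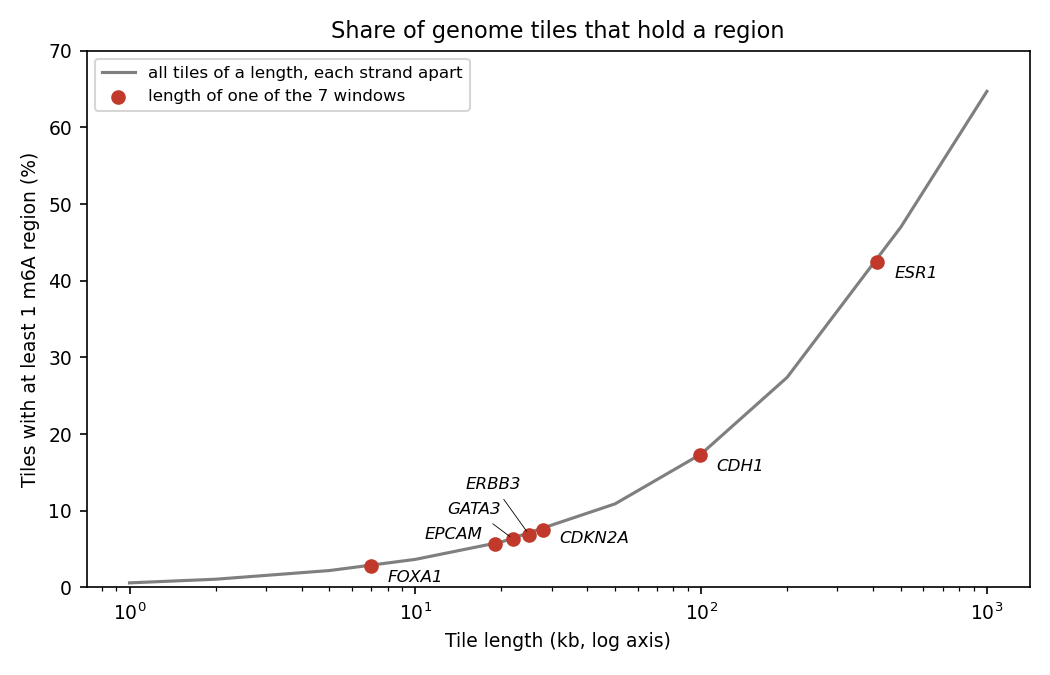
The grey line gives the percentage of genome tiles that hold at least 1 m6A region on a given strand, against tile length in kb on a log axis. Red points mark the lengths of the 7 windows, from 2.84% at 7 kb (FOXA1) to 42.5% at 414 kb (ESR1). On a single strand, and with assembly gaps counted, most tiles of each length hold no region. At the length of ESR1 this turns to 58.6% of tiles with a region when both strands count and 63.7% in 1 Mb bins that hold one.

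Set beside mesenchymal genes of the same list, the contrast was much wider than beside the genome. VIM (vimentin), ZEB1 (a repressor of CDH1), HMGA2, SNAI2, FN1 (fibronectin), CD44 and AXL are associated with the mesenchymal state, and 6 of these 7 held a region. Together they had 132 regions on their own strand in 581 kb, or 22.7 per 100 kb, against 0 in 614 kb for the epithelial, luminal and deleted genes. HMGA2 alone supplied 59 of the 132. The genome mean takes in sequence between genes, and no set of expressed genes was counted, so whether this rate is particular to mesenchymal genes was not tested. At the genome mean 581 kb would hold 3.93. The mesenchymal windows ran from 4 to 211 kb. As background, 2.2% of genome tiles of 5 kb and 27.4% of those of 200 kb held a region on a given strand. ZEB1 held 17 regions in 211 kb (8.06 per 100 kb), the lowest rate above 0, and AXL 19 in 43 kb (44.2 per 100 kb), the highest. SNAI2, with a window of 4 kb, held 0. No test of this difference was made, because the genes of both lists were chosen with earlier results of these data known and genes are not replicates.

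For single genes, the window length sets how much a count of 0 can say. The count allows up to 0.725 regions per 100 kb at ESR1 and 3.03 at CDH1, both below the 8.06 of ZEB1. It allows 10.7 at CDKN2A, 12 at ERBB3, 13.6 at GATA3, 15.8 at EPCAM and 42.9 at FOXA1. In these 5 windows taken singly, a count of 0 does not separate the gene from a rate like that of ZEB1, and the limit at FOXA1 is near the rate at HMGA2 (41.3 per 100 kb).

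Among a further 12 epithelial or luminal genes, 9 held 0 regions: PGR (progesterone receptor), CLDN4, ESRP1, GRHL2, RAB25, ELF3, SPDEF, TFF1 and CDH3. The other 3 held 5 regions on their own strand. KRT19, a simple epithelial keratin, held 2, at 39679986 to 39680124 and 39680734 to 39680764 on chromosome 17. CLDN7, a tight junction claudin, held 2, at 7163490 to 7163531 and 7166384 to 7166442 on the same chromosome. ERBB2, the partner receptor of ERBB3, held 1 of 105 nt at 37884145 to 37884249, in a window of 41 kb. The pooled rate over the 12 was 1.0 per 100 kb in 498 kb. That length would hold 3.37 regions at the genome mean against the 5 seen, so the pooled rate was near the background. By gene, the rate was 50 per 100 kb at CLDN7 and 33.3 at KRT19, from 2 regions each. Their windows were short, 4 and 6 kb, and 2.2% of genome tiles of 5 kb held a region on a given strand. The rate was 2.44 at ERBB2 and 0 at the other 9 genes. The difference of the 12 from the 7 genes was not tested.

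**Figure D4:**
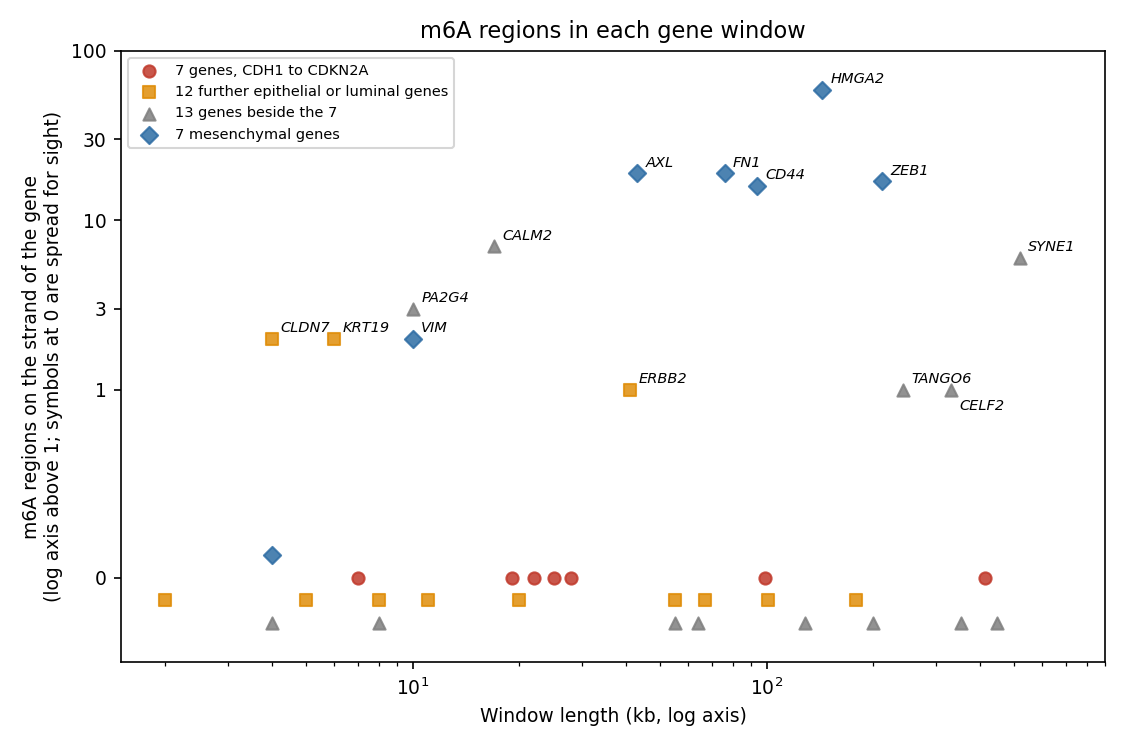
Each symbol is a gene, placed by the length of its window in kb (log axis) and the number of m6A regions on its strand (log axis above 1). The 7 genes from CDH1 to CDKN2A lie at 0 over the whole range of lengths. Of the mesenchymal genes only SNAI2 lies at 0, whereas 8 of 13 genes beside the 7 and 9 of the 12 further epithelial or luminal genes do. CDH3 belongs to both of these last lists, so it is drawn and counted in each.

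A count of 0 was common beside the 7 genes too. Of 13 protein-coding genes that adjoin them, 5 held at least 1 region and 8 held 0, with 18 regions in 2377 kb, or 0.757 per 100 kb. At the genome mean this length would hold 16.1, so the adjoining genes as a group were near the background of the list. Their windows ran from 4 to 517 kb, and 2.2% of genome tiles of 5 kb and 47% of those of 500 kb held a region on a given strand. Single genes differed: the rate was 41.2 per 100 kb at CALM2 and 30 at PA2G4, from 7 and 3 regions, while 8 genes held 0. Among those at 0 were RPS26 and TAF3, a subunit of the general transcription factor TFIID. At EPCAM, ERBB3 and ESR1 the window was empty while at least 1 adjoining gene held 3 or more regions, a count not scaled to window length. SYNE1, beside ESR1, had 1.16 regions per 100 kb on the opposite strand, against a genome mean of 0.677. The CALM2 regions lay 192 kb or more upstream of the EPCAM window, also on the opposite strand.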

How the data were processed

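The list of m6A regions in hg19 was used as deposited. Reads were aligned with Bowtie2, per the submitters' processing notes; which caller and thresholds were used, and how IgG entered, is not given in the sources used here. Column 5, the score, holds 1 in every row of the deposited list and was not used as a measure. Read depth is unknown. Start positions were changed to count from 1.

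The members and lists were chosen with earlier results of these data known. Windows of the 7 genes came from the stated rule, in kb. Windows of the other genes were entered by hand from general knowledge of hg19, in kb; chromosome and strand matched GENCODE release 29 (GRCh38) for 39 of 39 genes. Window lengths came within 10% of an annotated span for 25 of 39, and within 2 kb for 5 of the 7 genes. The ESR1 and GATA3 windows are shorter than the annotated spans (473 and 29.8 kb). The EPCAM window fits the RefSeq span (17.7 kb) and is shorter than the GENCODE span (42.4 kb). The windows of CELF2 (332 kb), MTAP (64 kb) and CDH3 (55 kb) are also much shorter than their GENCODE spans (538, 135 and 86.4 kb). Counts for these genes therefore cover only part of each. No position was compared between builds. All 7 genes, and the genes of the fixed lists that held a region or marked the ends of a list, were named. The genes beside the 7 (next protein-coding gene in RefSeq), the motif search and the empty stretches were added after the list was seen. One adjoining gene is not reported here.

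Tiles ran without gaps from position 1 of each chromosome to its last region, assembly gaps included, with each strand counted apart. For the motif, the transcript with the best APPRIS principal tag was taken, then the longest. Counting was tested on simulated data. Alternatives were overlap by 1 nt, strand, wider windows, wider regions, other tiles and members left out. Versions were matplotlib 3.10.9, scipy 1.17.1, pandas 2.3.3, numpy 2.4.6 and Python 3.11.15.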

Additional observations from a re-analysis of the deposited data

How the results depend on the processing

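The count of 0 regions in the 7 windows did not change with overlap of 1 nt in place of the midpoint, with regions of either or only the opposite strand, with windows widened by 5 kb at both ends, or with regions wider than the median of 45 nt. The rate stayed at 0 without ESR1 and, in an alternative chosen after seeing the data, without CDKN2A. With a full count of 0, leaving out genes or keeping only wider regions could only give 0 again, so these settings test nothing. With windows widened by 50 kb, 12 regions entered on the strand of the genes, 10 of them at ERBB3, and 2 of the 7 genes gained any. The tile shares moved by construction. With both strands counted together they were 29.5% for the length of CDH1, 10.9% for EPCAM, 58.6% for ESR1, 12% for GATA3, 5.54% for FOXA1, 13% for ERBB3 and 14% for CDKN2A. With only tiles in 1 Mb bins that hold a region on that strand they were 26.6% (CDH1), 8.83% (EPCAM), 63.7% (ESR1), 9.74% (GATA3), 4.38% (FOXA1), 10.6% (ERBB3) and 11.5% (CDKN2A). Under both settings more tiles of the length of ESR1 hold a region than not. Distances to the region edge and to its midpoint gave the same nearest regions. No paired analysis was possible because the list has no value for a single library, and leaving out a library could not be run for the same reason. Read depth and enrichment over IgG are unknown, so a count of 0 cannot separate no RNA, unmethylated RNA and too few reads.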

Other observations

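Regions on the strand opposite to the gene were listed in 4 of the 7 mesenchymal windows and in 0 of the 7 windows from CDH1 to CDKN2A. As background, 2.2% of genome tiles of 5 kb and 27.4% of those of 200 kb held a region on a given strand. The mesenchymal windows held 6 such regions in 581 kb, near the 3.93 that the genome mean rate per strand would give. For the 614 kb of the other 7 windows that rate would give 4.16. This difference was not tested. VIM had 2 on its own strand, at 17272849 to 17272884 and 17274701 to 17274759 on chromosome 10, and 2 on the minus strand, at 17277213 to 17277235 and 17278320 to 17278352. HMGA2 had 2 on the opposite strand beside 59 on its own, and FN1 and AXL had 1 each beside 19. CLDN7 had 1, of 23 nt at 7163003 to 7163025 on chromosome 17, at the edge of its window. The transcripts these regions belong to were not identified here.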
